A study of Mus musculus with 8 samples.

Results

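The genes described are 38 genes used to mark macrophages, monocytes and dendritic cells (DCs), measured by bulk RNA-seq in 8 MC38 tumors. They were given as a list of gene names. Of the 38, 37 were listed among the 24421 genes of the count table, and 36 passed the expression filter and were tested among 14468 genes. Xcr1 did not pass the filter, and no value was found under the symbol Vcan2, which was not analysed here. MC38 cells derive from a colon adenocarcinoma of the mouse. The Kaede protein fluoresces green until violet light converts it to red, so that cells present in a tumor at illumination can be told from cells that enter later. All 8 tumors were grown from 250000 MC38 cells injected into female B6 Kaede mice aged 9 weeks, with 4 mice in each group. On day 10, at a diameter of about 5 mm, the 4 tumors of the Photoconverted group were exposed to 405-nm light for 3 min. The 4 tumors of the Control group were not exposed, and all tumors were collected 5 h after the exposure. The comparison addressed whether exposure to light altered gene expression in the tumor. Every tumor came from 1 cell line in Kaede hosts, whole tumors were sequenced, and a single time point was sampled.

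Macrophages, monocytes and DCs are phagocytes of the myeloid lineage that depend on growth factors made by other cells. Monocytes leave the bone marrow under the control of the chemokine receptor CCR2, enter tumors, and can become macrophages, whose survival requires signaling through the CSF1 receptor. Conventional DCs arise from precursors that respond to FLT3 ligand, take up tumor antigen, and on maturation upregulate CCR7 and carry that antigen to the draining LN. In implanted tumors macrophages are commonly the most abundant leukocytes, whereas DCs are rare.

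The libraries differed in depth and in their share of ribosomal RNA. Total counts ranged from 12576615 to 35844417, and Rn45s, the precursor of ribosomal RNA, took a share of counts that was under 10% in 5 tumors (2.70% to 9.65%) and between 21.9% and 35.7% in photoconverted tumor 4 and control tumors 2 and 4. These 3 libraries also had the 3 lowest total counts. The medians of the 5 larger gene lists are given below with and without them. Levels are given in CPM, counts divided by the TMM-normalized library size of each tumor and put on 1 scale. The pan-leukocyte gene Ptprc was at 122, 115, 153 and 71.0 CPM in the 4 photoconverted tumors and 152, 91.0, 152 and 50.5 CPM in the 4 controls, so leukocyte transcripts were present in every library. Of 5 epithelial genes, Cdx2 was at 0 in all 8 tumors, and their summed level was 1.78 to 2.37 CPM in photoconverted and 1.26 to 2.99 CPM in control tumors.

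No myeloid member passed the threshold. In the quasi-likelihood test of edgeR, with p-values adjusted by the Benjamini-Hochberg method, 0 of the 36 members had an adjusted p under 0.05, as did 0% of all genes tested. Estimates of the log2 fold change (photoconverted minus control) were positive for 18 members and negative for 18, with a median of 0.00 beside a median of -0.01 over all genes tested. They ran from -0.92 for Il12b to 1.46 for Cd209a, and were under 0.5 in size for 30 of 36 members. For 32 members the difference between group means of log2 CPM was smaller than the SD within groups, the exceptions being Spp1, Cd14, Chil3 and Cd209a. One member, Cd14, had an unadjusted p under 0.05 (2.78% of members, against 2.23% of all genes in edgeR), and 0 members had groups that did not overlap in CPM (1.33% of all genes). DESeq2's Wald test also called 0 members (0.117% of all genes). In bulk RNA a smaller number of cells of a type and less RNA per cell cannot be told apart.

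**Figure D1:**
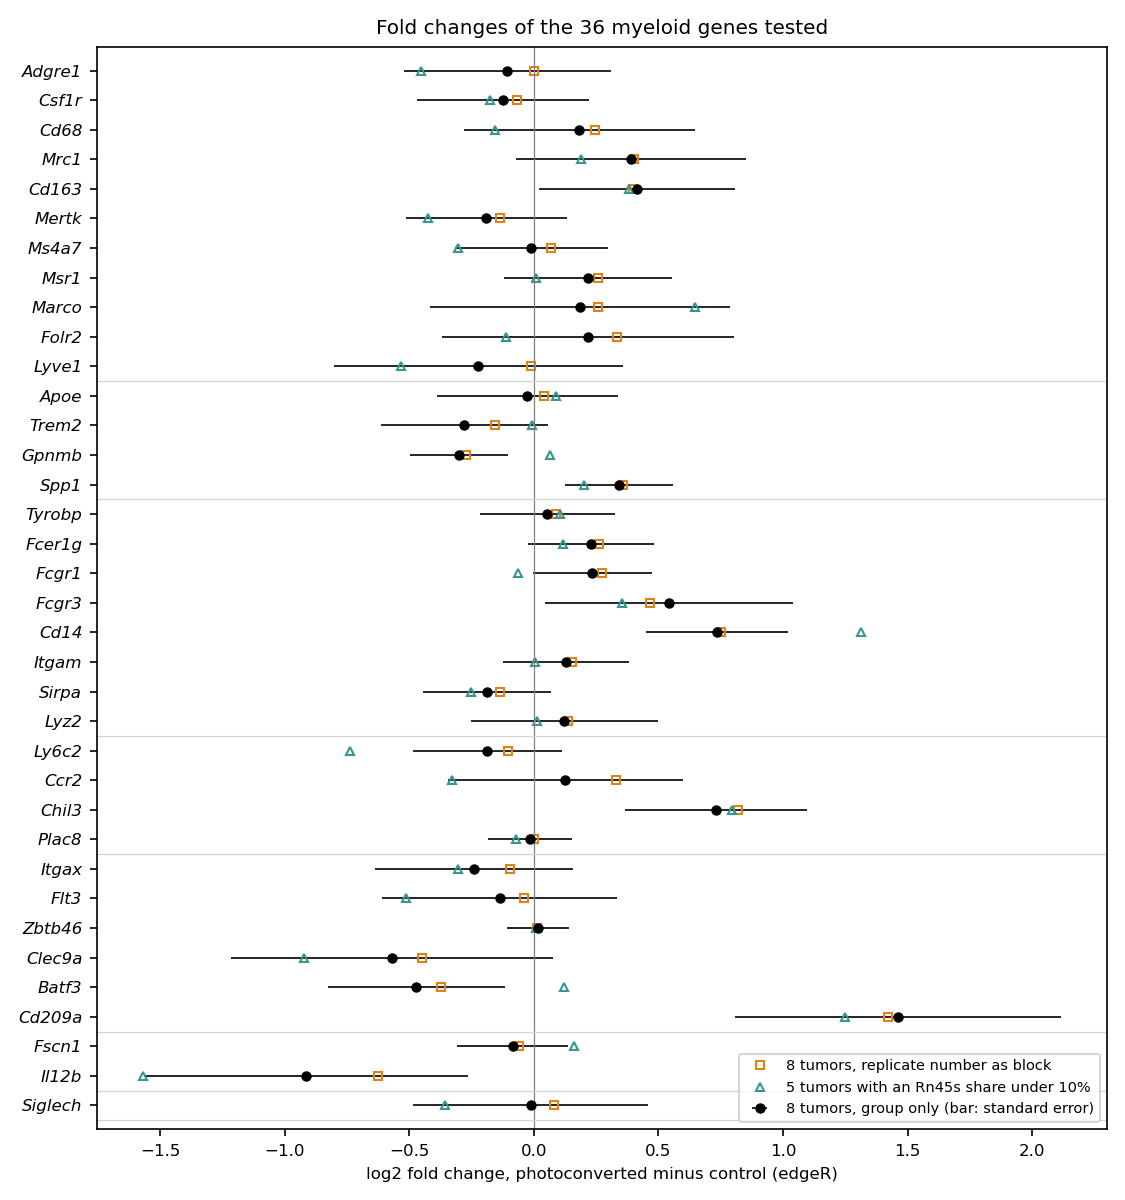
Log2 fold changes (x axis, photoconverted minus control, edgeR) of the 36 members tested, grouped by list from tissue macrophage genes at the top to Siglech at the bottom. Filled circles with SE bars are the fit of 8 tumors, open squares the fit with the replicate number as a block, and open triangles the fit of 5 tumors whose Rn45s share was below 10%; most circles lie within 0.5 of 0, Cd209a lies furthest right at 1.46 and Il12b furthest left at -0.92.

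Both groups carry replicate numbers 1 to 4. Deviations from group means correlated at a mean of 0.433 between same-numbered tumors and -0.134 between others. Because deviations were taken from each group's own mean, the second value is tied to the first and is not an independent comparison. Same-numbered tumors were not always the most alike: tumors 2 were at 0.107, whereas photoconverted tumor 3 and control tumor 1 were at 0.482. Of the 8 tumors, 5 correlated best with their own number. The labels state no shared litter or batch, so the pairing is uncertain. With the number as a block, 0 members passed the adjusted threshold in edgeR, but the count at an unadjusted p under 0.05 was 5 of 36 (13.9%), and all 5 estimates were positive (Spp1, Fcgr3, Cd14, Chil3 and Cd209a). Over all genes the blocked fit gave 6.01% in either direction and 4.38% higher. Members were chosen with earlier results of these data known, so the shares among them are descriptive only. The photoconverted tumor was higher than the control tumor of the same number in 4 of 4 pairs for 2 members, Spp1 and Cd209a (5.56%, against 7.2% of all genes), and lower in 4 of 4 pairs for 0 members (7.18% of all genes).

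Per kilobase of merged exons, the members spanned a wide range of levels. Spp1, encoding the secreted phosphoprotein osteopontin, was the highest at 766 CPM per kb (mean of 8 tumors), followed by the lysozyme gene Lyz2 (229), Apoe (158) and Fscn1 (153). Tyrobp (88.2), Fcer1g (63.4), Plac8 (48.7), Cd68 (36.3) and Ly6c2 (32.3) came next. The lowest levels were those of DC genes: Siglech was at 0.369, Flt3 at 0.358, Clec9a at 0.164 and Xcr1 at 0.0839 CPM per kb. Several members are not restricted to myeloid cells: osteopontin, fascin and GPNMB are also made by tumor or stromal cells, Lyve1 also marks lymphatic endothelium, and Zbtb46 is also expressed by endothelium.

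**Figure D2:**
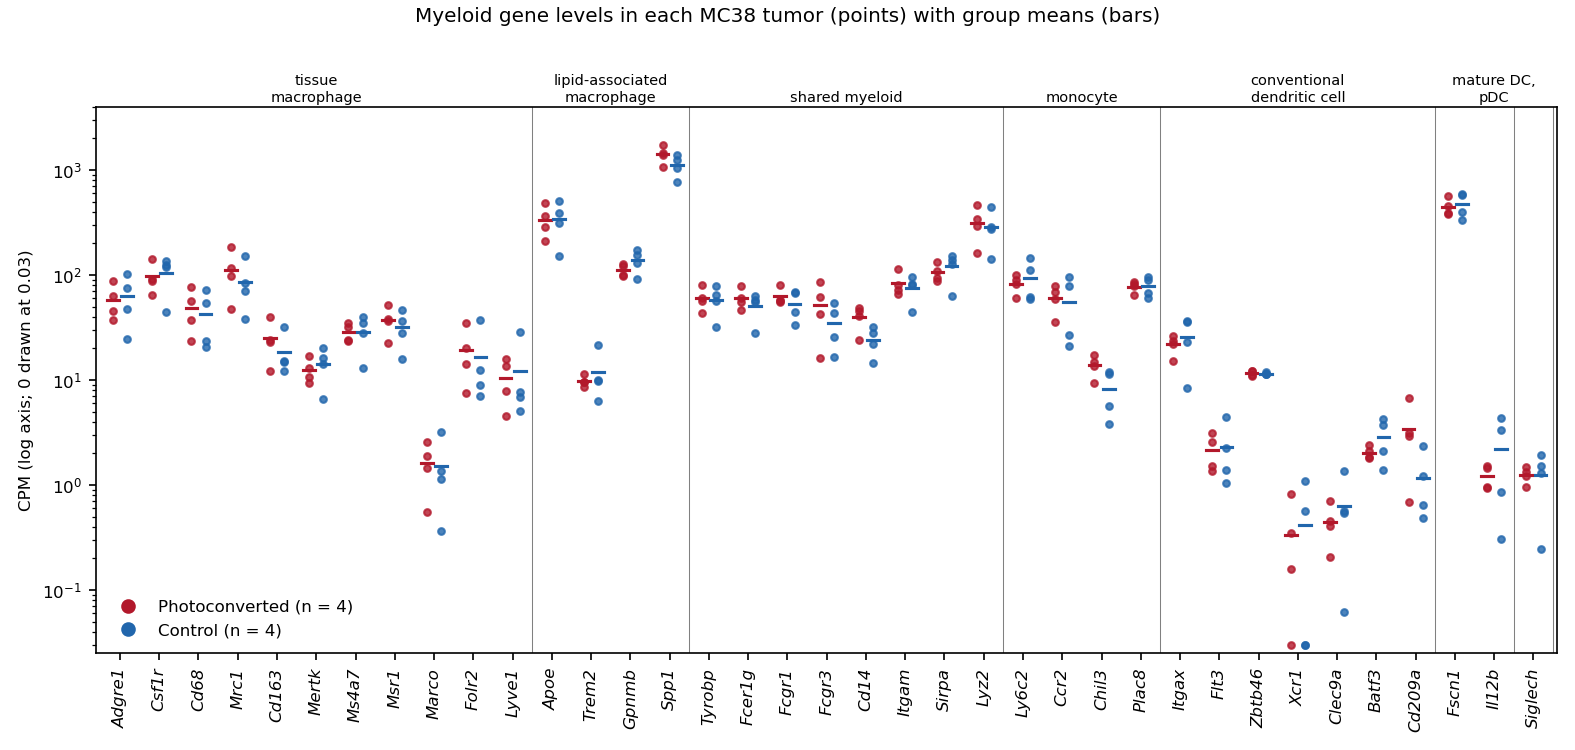
Levels of the 37 members found in the count table, in CPM on a log axis, with 1 point for each tumor and a bar for each group mean (red photoconverted, blue control, n = 4 each, 0 drawn at 0.03). The groups overlap for every member, and levels run from at least 1068 CPM in every photoconverted tumor for Spp1 to 0 in 3 tumors for Xcr1.

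The clearest pattern in these genes lay between tumors and not between groups. Control tumor 4 had the lowest of the 8 values for 24 of the 36 members tested, and photoconverted tumor 4 had the lowest value of its group for 26. Photoconverted tumor 3 was the highest of 8 for 12 members and control tumor 1 for 11. No share of all genes is given beside these counts, which are descriptive only. The median over members of log2 CPM minus each gene's mean was 0.06, 0.08, 0.53 and -0.43 in the photoconverted tumors (1 to 4) and 0.36, 0.03, 0.13 and -0.91 in the control tumors (1 to 4). Thus the lowest tumor of each group was tumor 4, and the groups overlapped over most of their range. Over all genes tested this median was at most 0.01 in size in every tumor, which the normalization largely sets. The T cell marker list was likewise lowest in control tumor 4 (-1.69) and second lowest in photoconverted tumor 4 (-0.68). So were skeletal muscle (-1.09 and -1.05), keratinocyte (-1.22 and -1.21) and endothelial genes (-0.44 and -0.37). Neutrophil genes were lowest in the same tumors in the reverse order (-0.97 and -1.05). B cell (0.25 and -0.14), adipocyte (-0.58 and -0.64) and epithelial genes (0.83 and -0.28) did not share this order.

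The Rn45s share followed this pattern only in part. Tumor 4 of each group had a high share, but control tumor 2, with the highest share (35.7%), had a median level of 0.03 over members. Of the 36 members, 9 were higher in each of the 5 tumors with a low Rn45s share than in each of the other 3 (25%, against 21% of all genes): Cd68, Mrc1, Msr1, Folr2, Spp1, Fcgr3, Ccr2, Flt3 and Cd209a. The reverse order held for 2, Batf3 and Fscn1 (5.56%, against 23.4% of all genes). The first of these shares was thus close to that of all genes and the second below it. The mean log2 CPM of the 5 tumors exceeded that of the other 3 by a median of 0.64 over members and 0.03 over all genes. The latter is held low by the normalization. The part of library quality in the levels of these genes was not tested, and the 3 tumors with a high share are 1 photoconverted and 2 control tumors, too few to compare the groups among them.

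**Figure D3:**
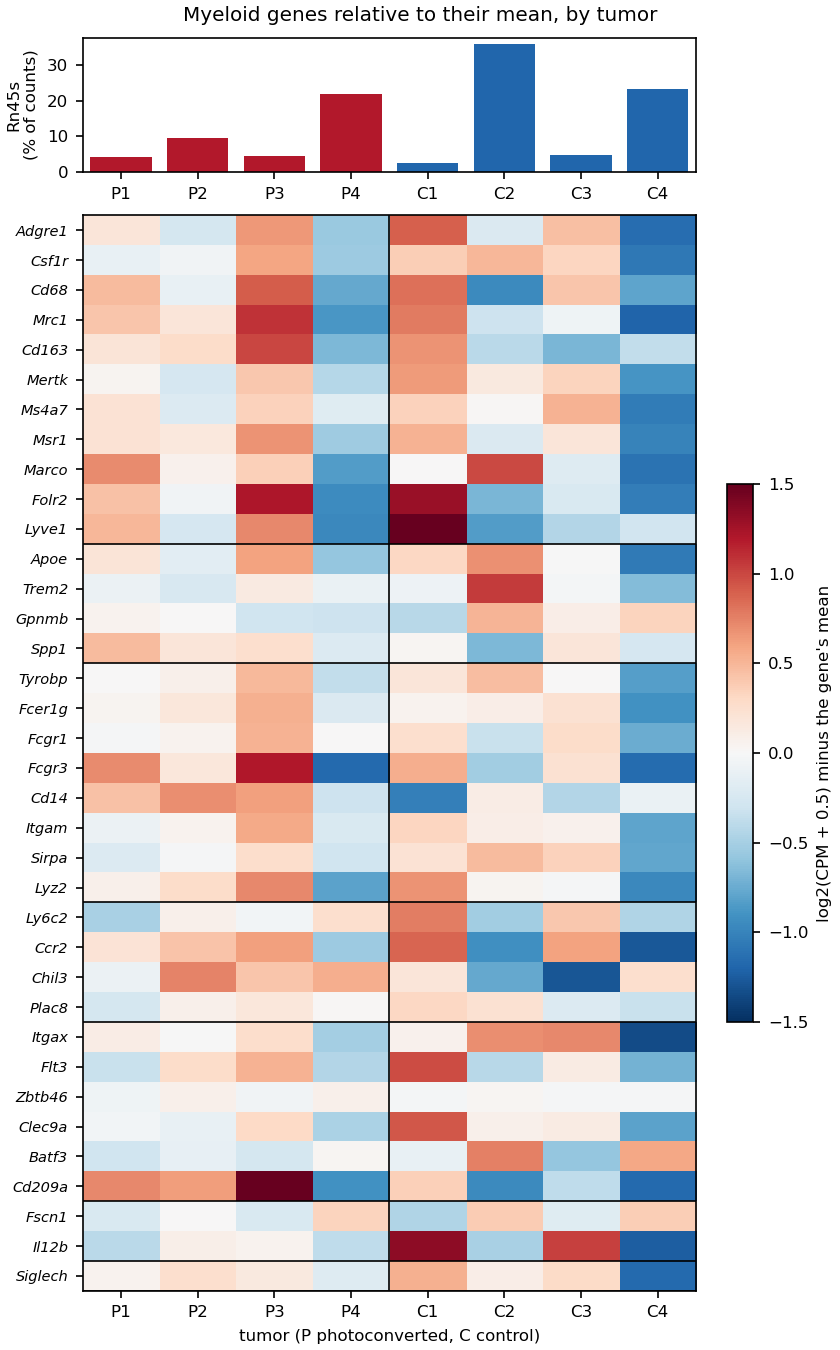
Upper panel, Rn45s share of counts (%) in each tumor (P photoconverted, C control); lower panel, log2(CPM + 0.5) of each of the 36 members tested minus its mean over 8 tumors (color scale), with horizontal lines between lists. Columns P4 and C4 are mostly blue (lower) and column P3 mostly red (higher), while Fscn1 is red in the 3 tumors with the highest Rn45s shares.

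The promoters of the members were searched for GAGGAA or its complement TTCCTC. These letters are the core of the PU-box bound by PU.1, the myeloid transcription factor encoded by Spi1. RefSeq promoter windows (GRCm38.p6) were found for 30 of the 38 members, and 16 of their 38 windows (42.1%), in 13 members, held the letters on either strand in the 250 bases before the start, against 23.3% of 32851 windows of all genes. A match is a description and not a shown binding site, and windows of 1 gene can overlap. Any part of PU.1 in the variation between tumors was not tested. The following stretches, each free of annotated exons, belong to a lipid-associated macrophage gene, a scavenger receptor of tissue macrophages, an Fc receptor and an integrin discussed below, and show every match in capitals within its context, 5′ to 3′ on the strand of the gene.
Spp1: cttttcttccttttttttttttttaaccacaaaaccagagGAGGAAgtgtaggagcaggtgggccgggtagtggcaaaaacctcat
Mrc1: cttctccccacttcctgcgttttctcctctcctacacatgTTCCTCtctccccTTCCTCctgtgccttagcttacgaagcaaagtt
Fcgr1: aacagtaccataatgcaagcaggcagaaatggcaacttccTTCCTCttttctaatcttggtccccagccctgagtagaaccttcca
Itgam: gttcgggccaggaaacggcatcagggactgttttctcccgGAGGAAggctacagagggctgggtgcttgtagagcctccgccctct
The Spp1 stretch lies at chr5:104434958-104435043 (plus strand), that of Mrc1 at chr2:14229194-14229279 (plus strand), that of Fcgr1 at chr3:96293979-96294064 (minus strand) and that of Itgam at chr7:128062516-128062601 (plus strand). The Mrc1 and Fcgr1 matches read TTCCTC along the gene, and those of Spp1 and Itgam read GAGGAA. Spi1 itself was at 22.5, 30.9, 39.7 and 26.8 CPM in the 4 photoconverted tumors and 28.7, 30.4, 30.0 and 18.8 CPM in the 4 controls, with a log2 fold change of 0.15 (SE 0.21) and overlapping groups.

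Genes of tissue macrophages did not separate the groups. All 11 were tested, 6 estimates were positive and 5 negative, 0 passed the adjusted threshold or an unadjusted p of 0.05, and the median log2 fold change was 0.18. Without the 3 libraries with a high Rn45s share this median was -0.16, and it was also negative without photoconverted tumor 1 (-0.07), photoconverted tumor 3 (-0.12) or control tumor 4 (-0.13). By tumor, the median level relative to the mean was 0.22, -0.05, 0.69 and -0.69 in the photoconverted tumors (1 to 4) and 0.69, -0.22, 0.18 and -1.07 in the control tumors (1 to 4), and each group thus held 1 tumor near 0.69 and 1 at or below -0.69.

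Adgre1, encoding the surface marker F4/80, was at 62.6, 45.8, 86.9 and 37.2 CPM in the photoconverted tumors (1 to 4) and 103, 47.1, 75.4 and 24.7 CPM in the control tumors (1 to 4). Csf1r, the receptor for CSF1 and IL-34, was at 87.4, 91.4, 143 and 64.7 CPM in the 4 photoconverted tumors and 123, 134, 119 and 44.8 CPM in the 4 controls. The highest Adgre1 value was in control tumor 1 and the highest Csf1r value in photoconverted tumor 3, control tumor 4 was lowest for both, and the groups overlapped almost entirely. Their log2 fold changes were -0.11 (SE 0.41) for Adgre1 and -0.12 (SE 0.35) for Csf1r.

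Mrc1, the mannose receptor CD206, was at 117, 98.7, 185 and 47.4 CPM in the photoconverted tumors (1 to 4) and 151, 70.004, 83.4 and 37.7 CPM in the control tumors (1 to 4). Photoconverted tumor 3 and control tumor 1 were highest and tumor 4 of each group lowest, giving a log2 fold change of 0.39 (SE 0.46) with an unadjusted p of 0.422 in edgeR. Cd163, the scavenger receptor for hemoglobin-haptoglobin complexes, had the largest estimate of this list, at 0.41 (SE 0.39), and stood at 22.8, 24.1, 40.1 and 12.2 CPM in the 4 photoconverted tumors and 32.0, 14.9, 12.2 and 15.2 CPM in the 4 controls. Here control tumor 1 lay far above the other 3 control tumors, and within the span of the photoconverted tumors. Folr2 and Lyve1, which mark macrophages resident in tissue, had the same control tumor at the top of all 8, with ranges of 6.96 to 37.0 CPM and 4.58 to 28.8 CPM and log2 fold changes of 0.22 (SE 0.59) and -0.22 (SE 0.58).

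The remaining members of the list also had small estimates and overlapping groups. The lysosomal glycoprotein gene Cd68 spanned 20.7 to 76.7 CPM (log2 fold change 0.18, SE 0.46), and the scavenger receptor gene Msr1 spanned 16.0 to 52.2 CPM (0.22, SE 0.34). Mertk, a receptor for the uptake of apoptotic cells, spanned 6.65 to 20.1 CPM (-0.19, SE 0.32), and Ms4a7, a membrane protein of macrophages, spanned 13 to 39.5 CPM (-0.01, SE 0.31). Marco, a scavenger receptor, had the lowest level of the list per length (0.813 CPM per kb), at 0.366 to 3.21 CPM (0.19, SE 0.60), and it was highest in control tumor 2.

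Genes of lipid-associated macrophages were mixed. Of 4 tested, 1 estimate was positive and 3 were negative, with a median of -0.15 in 8 tumors and 0.08 in the 5 with a low Rn45s share, and 0 passed the adjusted threshold. Without control tumor 2 the median was 0.18, with Apoe at 0.23 and Trem2 at 0.16. Apoe, encoding the lipid carrier apolipoprotein E, was at 363, 284, 482 and 212 CPM in the 4 photoconverted tumors and 392, 508, 315 and 151 CPM in the 4 controls. Trem2, a lipid-sensing receptor, was at 9.61, 8.56, 11.3 and 9.50 CPM in the 4 photoconverted tumors and 9.68, 21.7, 10.1 and 6.35 CPM in the 4 controls. For both, control tumor 2 was highest and control tumor 4 lowest, so the photoconverted tumors lay inside the span of the controls, and the log2 fold changes were -0.03 (SE 0.36) and -0.28 (SE 0.33). Gpnmb, a transmembrane glycoprotein of lysosome-rich macrophages, ranged over 91.5 to 174 CPM, with an estimate of -0.30 (SE 0.20) that was 0.06 in the 5 tumors.

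Spp1 (annotated at chr5:104435118-104441050 of GRCm38, plus strand) was higher in the photoconverted tumor of each pair. It was at 1712, 1399, 1466 and 1068 CPM in the photoconverted tumors (1 to 4) and 1256, 770.0, 1393 and 1035 CPM in the control tumors (1 to 4). Photoconverted tumor 1 was the highest of all and control tumor 2 the lowest, but photoconverted tumor 4 lay below control tumors 1 and 3, so the groups overlapped. Its log2 fold change was 0.34 (SE 0.22) with an unadjusted p of 0.150 in edgeR, and 0.36 with an unadjusted p of 0.0490 and an adjusted p of 0.826 in edgeR with the replicate block. In the 5 tumors with a low Rn45s share the estimate was 0.20. An annotated transcript, Gm42793, shares exon sequence with Spp1 on the same strand, which could affect how its reads were counted.

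Receptors and adaptors shared by many myeloid cells gave positive estimates for 7 of 8 genes, with a median of 0.18 in 8 tumors and 0.06 in the 5 tumors with a low Rn45s share, and -0.02 without control tumor 4. None passed the adjusted threshold in the fit of 8 tumors with edgeR, and 1 had an unadjusted p under 0.05. Tyrobp, the adaptor DAP12, was at 56.8, 59.7, 79.4 and 43.7 CPM in the 4 photoconverted tumors and 64.5, 78.2, 56.8 and 31.7 CPM in the 4 controls. Fcer1g, the common gamma chain of Fc receptors, was at 55.1, 60.4, 77.7 and 46.1 CPM in the 4 photoconverted tumors and 55.6, 57.4, 62.9 and 28.2 CPM in the 4 controls. Both were highest in photoconverted tumor 3 and lowest in control tumor 4, with log2 fold changes of 0.05 (SE 0.27) and 0.23 (SE 0.25) and overlapping groups. Lyz2, encoding lysozyme, was at 294, 339.5, 461 and 161 CPM in the 4 photoconverted tumors and 447, 287, 275 and 143 CPM in the 4 controls, again lowest in tumor 4 of each group, and its log2 fold change was 0.12 (SE 0.37).

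Fcgr3, a low-affinity receptor for IgG, was at 61.1, 42.0, 86.2 and 16.3 CPM in the photoconverted tumors (1 to 4) and 54.6, 25.9, 43.8 and 16.5 CPM in the control tumors (1 to 4). The 2 tumors numbered 4 had nearly equal low values, and the other 3 photoconverted tumors were each above the control tumor of the same number. Its log2 fold change was 0.54 (SE 0.50) with an unadjusted p of 0.302 in edgeR, against 0.47 with an unadjusted p of 0.0248 and an adjusted p of 0.775 in edgeR with the replicate block. The 5 tumors with a low Rn45s share gave 0.36. Fcgr1, the high-affinity IgG receptor CD64, ranged over 33.3 to 80.5 CPM (0.23, SE 0.24), Itgam, the integrin CD11b, over 44.1 to 114 CPM (0.13, SE 0.25), and Sirpa, the receptor for CD47, over 63.7 to 153 CPM (-0.19, SE 0.26). These 3 genes varied by less than 3-fold across tumors.

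Cd14, the co-receptor for lipopolysaccharide, was the member with the smallest p. It was at 40.7, 48.6, 45.8 and 23.9 CPM in the photoconverted tumors (1 to 4) and 14.4, 32.1, 21.9 and 27.8 CPM in the control tumors (1 to 4). Photoconverted tumors 1 to 3 exceeded all 4 controls, whereas photoconverted tumor 4 lay below control tumors 2 and 4, so the groups overlapped. Means were 39.7 ± 11.0 CPM with light and 24.0 ± 7.66 CPM without (mean ± SD, n = 4 each). In edgeR the log2 fold change was 0.74 (SE 0.28) with an unadjusted p of 0.0284 and an adjusted p of 0.999, and the two-sided exact permutation test over 70 arrangements gave p = 0.0857, with 0.0286 the smallest p that groups of 4 can give. The block left it similar, at 0.75 with an unadjusted p of 0.0159 and an adjusted p of 0.728 in edgeR.

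Among 5 tumors of low Rn45s share (3 photoconverted, 2 control), an alternative chosen after the data were seen, Cd14 was the only member past the threshold, at 1.31 (SE 0.18) with an adjusted p of 0.0484 in edgeR, where 0.275% of all genes were called. Across all alternatives its estimate stayed between 0.55, without control tumor 1, and 1.31, with adjusted p-values between 0.0484 and 1.00 in edgeR, DESeq2 or limma. Leaving out photoconverted tumor 1, 2 or 3 or control tumor 1 or 3 took its unadjusted p above 0.05. At an unadjusted p under 0.05 the 5 tumors gave 4 members in edgeR (11.1%, against 10.5% of all genes), which were Cd14 and Cd209a, with positive estimates, and Ly6c2 and Il12b, with negative estimates.

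Neutrophils also express Cd14, and markers of this and other cell types were examined beside it. All 9 neutrophil genes tested of 10 listed had positive estimates. In edgeR 0 of the 9 passed the adjusted threshold in 8 tumors and 3 did in the 5 tumors, and 7 had an unadjusted p under 0.05 in 8 tumors, against 2.23% of all genes. Their summed level was 110.4, 129.6, 165 and 52.7 CPM in the photoconverted tumors (1 to 4) and 72.0, 47.7, 61.6 and 41.1 CPM in the control tumors (1 to 4), and none of the 9 was at 0 in any tumor. Photoconverted tumor 4, which was also low for Cd14, lay within the range of the controls. The summed level of 7 skeletal muscle genes was 172 to 1360.0 CPM against 174 to 407 CPM, of 5 keratinocyte genes 1.85 to 22.4 CPM against 2.44 to 4.34 CPM, and of 5 adipocyte genes 10.2 to 37.2 CPM against 10.3 to 21.1 CPM, with positive estimates for every gene tested of these lists. The part of these cell types in the values of Cd14 and of the other members was not tested. All these lists were chosen with earlier results of these data known, so their counts are descriptive only.

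**Figure D4:**
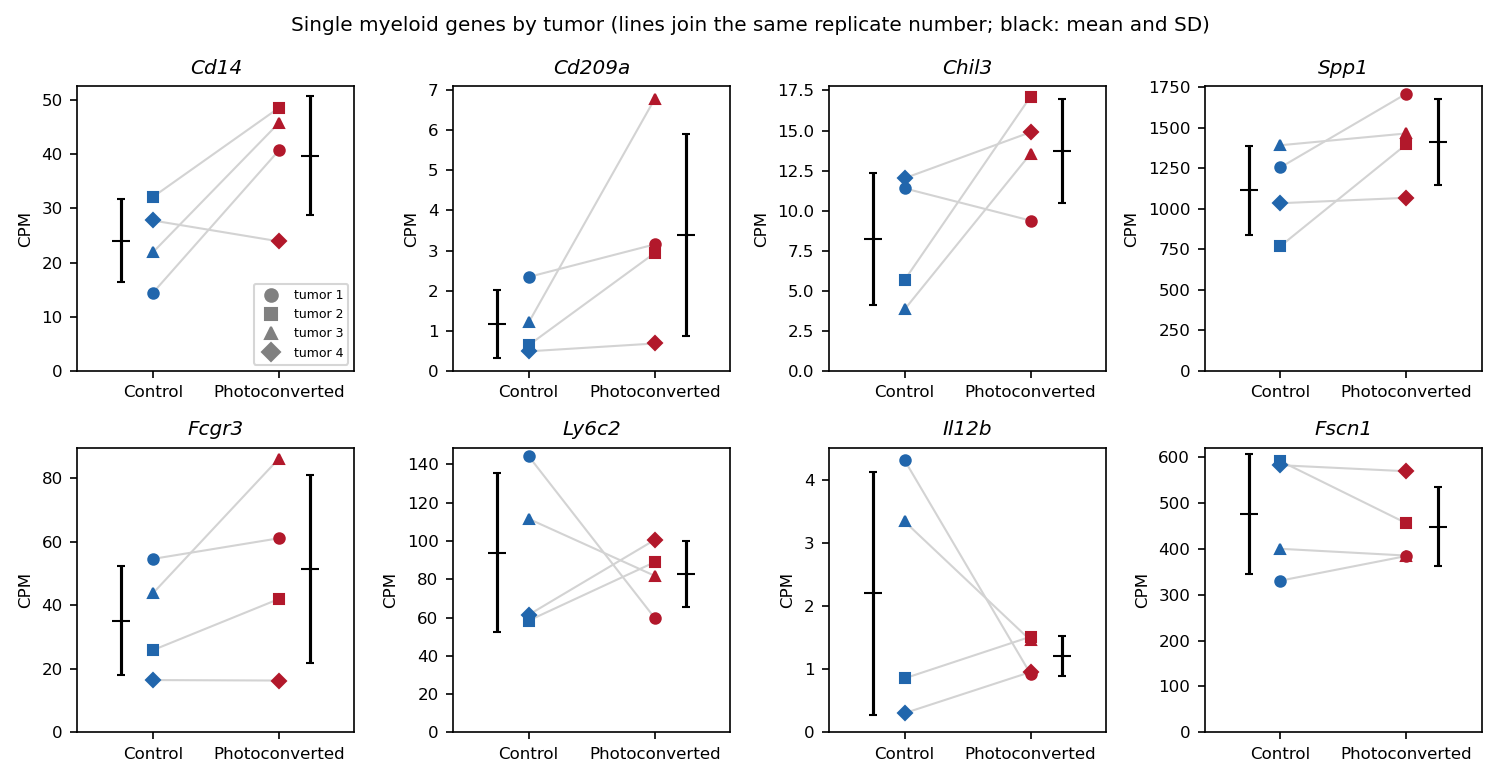
Levels (CPM, linear axes from 0) of Cd14, Cd209a, Chil3, Spp1, Fcgr3, Ly6c2, Il12b and Fscn1 in control (blue) and photoconverted (red) tumors, with a symbol for each replicate number, gray lines joining tumors of the same number, and black bars for mean ± SD (n = 4). For Cd209a and Spp1 all 4 lines point up, and for Cd14 the line of tumor 4 points down; for Ly6c2 and Il12b the lines of tumors 1 and 3 point down and those of tumors 2 and 4 up.

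Monocyte genes gave 2 positive and 2 negative estimates among 4 tested, with a median of 0.06 in 8 tumors and -0.20 in the 5 with a low Rn45s share, and 0 passed the adjusted threshold. It was also negative without photoconverted tumor 3 (-0.05), control tumor 2 (-0.02) or control tumor 4 (-0.13). Ly6c2, which encodes the Ly6C antigen of inflammatory monocytes, was at 59.8, 89.0, 81.8 and 101 CPM in the photoconverted tumors (1 to 4) and 144, 58.4, 112 and 61.5 CPM in the control tumors (1 to 4). Ccr2, the receptor for CCL2 and CCL7, was at 59.5, 69.4, 78.9 and 35.3 CPM in the 4 photoconverted tumors and 94.8, 27.1, 78.7 and 21.1 CPM in the 4 controls. For both, control tumors 1 and 3 were among the highest and control tumors 2 and 4 among the lowest, so that the control group spanned the photoconverted group. The log2 fold changes were -0.19 (SE 0.30) and 0.13 (SE 0.47). In the 5 tumors Ly6c2 was at -0.74 (SE 0.18), with an unadjusted p of 0.00424 and an adjusted p of 0.231 in edgeR, and both controls left in that fit were above all 3 photoconverted tumors.

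Chil3 (annotated at chr3:106147554-106167564 of GRCm38, minus strand), a chitinase-like protein of monocytes and alternatively activated macrophages, had the largest estimate of the list. It was at 9.38, 17.1, 13.6 and 14.9 CPM in the photoconverted tumors (1 to 4) and 11.4, 5.67, 3.84 and 12.0 CPM in the control tumors (1 to 4). Control tumors 2 and 3 had the lowest values, and photoconverted tumor 1 lay below control tumors 1 and 4. The log2 fold change was 0.73 (SE 0.36) with an unadjusted p of 0.0750 in edgeR and a two-sided exact permutation p of 0.114, and with the block it was 0.82 with an unadjusted p of 0.0440 and an adjusted p of 0.821 in edgeR. In the 5 tumors it was 0.79. Plac8, a small cysteine-rich protein of monocytes, was the most even of the list, at 60.9 to 94.9 CPM with a log2 fold change of -0.01 (SE 0.17).

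Conventional DC genes gave 2 positive and 4 negative estimates among 6 tested, with a median of -0.19 in 8 tumors, and 0 passed the adjusted threshold. Over the same 6 genes the median was -0.15 in the 5 with a low Rn45s share, and -0.31 there with Xcr1, which was also tested in that fit. Without control tumor 1 the median was 0.11. Itgax, the integrin CD11c, was at 23.7, 21.9, 26.4 and 15.3 CPM in the 4 photoconverted tumors and 22.9, 35.8, 36.4 and 8.36 CPM in the 4 controls. Flt3, the receptor that sustains DC development, was at 1.5, 2.56, 3.11 and 1.37 CPM in the 4 photoconverted tumors and 4.48, 1.39, 2.24 and 1.04 CPM in the 4 controls. Both were lowest in control tumor 4, the groups overlapped for each, and the log2 fold changes were -0.24 (SE 0.40) and -0.14 (SE 0.47). Zbtb46, a transcription factor of conventional DCs and endothelium, was the most even of all members at 11.0 to 12.2 CPM, with a log2 fold change of 0.02 (SE 0.12).

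Xcr1 and Clec9a, genes of cross-presenting DCs, had the lowest levels per length of the members. Xcr1, the receptor for XCL1, had 14, 5, 21 and 0 counts in the photoconverted tumors (1 to 4) and 38, 0, 16 and 0 counts in the control tumors (1 to 4). The 3 libraries at 0 were the 3 with the lowest totals, in which a count of 0 allows up to 0.205, 0.321 and 0.183 CPM in photoconverted tumor 4 and control tumors 2 and 4, so a difference was not detectable at this depth. Clec9a, a receptor for dead cells, was at 0.450, 0.411, 0.709 and 0.205 CPM in the photoconverted tumors (1 to 4) and 1.37, 0.535, 0.569 and 0.0610 CPM in the control tumors (1 to 4). Control tumor 1 had the highest value of both genes and control tumor 4 the lowest value of Clec9a, whose log2 fold change was -0.57 (SE 0.65). That lowest value is below the 0.183 CPM that a count of 0 allows in control tumor 4. Photoconverted tumor 4 is at its own limit of 0.205 CPM, so the order of the low Clec9a values is uncertain. Batf3, a transcription factor required by these DCs, ranged over 1.39 to 4.28 CPM and was highest in control tumors 2 and 4, with an estimate of -0.47 (SE 0.36) that was 0.12 in the 5 tumors.

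Cd209a (annotated at chr8:3743397-3748984 of GRCm38, minus strand), a C-type lectin of monocyte-derived and type 2 DCs, had the largest estimate of all members. It was at 3.15, 2.94, 6.78 and 0.683 CPM in the photoconverted tumors (1 to 4) and 2.34, 0.642, 1.21 and 0.488 CPM in the control tumors (1 to 4). Photoconverted tumor 3 was far above the rest, photoconverted tumors 1 and 2 were above all controls, and photoconverted tumor 4 lay among the controls. In the small libraries of photoconverted tumor 4 and control tumors 2 and 4, a count of 0 allows up to 0.205, 0.321 and 0.183 CPM. The tumors numbered 4 (0.683 against 0.488 CPM) lie above these limits but rest on few counts, so their order is uncertain. Means were 3.39 ± 2.52 CPM with light and 1.17 ± 0.840 CPM without (mean ± SD, n = 4 each). The log2 fold change of 1.46 (SE 0.65) had an unadjusted p of 0.0519 in edgeR and a two-sided exact permutation p of 0.143. With the block it was 1.42, with an unadjusted p of 0.00928 and an adjusted p of 0.674 in edgeR, and it was 1.25 in the 5 tumors and ranged from 0.90 to 2.06 over all alternatives. Cd209a belongs to a family of similar genes, as do Ly6c2, Chil3, Lyz2 and Fcgr3, and the division of reads among such copies is uncertain.

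The pair of genes listed for mature DCs differed in level and in evenness. Fascin is also made by tumor or stromal cells, and the part of DCs in the Fscn1 level was not tested. Fscn1, encoding the actin-bundling protein fascin, was at 384, 455, 385 and 568 CPM in the 4 photoconverted tumors and 330.3, 591, 399.6 and 582 CPM in the 4 controls. The 3 tumors with a high Rn45s share had the highest values, the groups overlapped, and the log2 fold change was -0.09 (SE 0.22). Il12b, the p40 subunit of IL-12 and IL-23, was at 0.926, 1.52, 1.46 and 0.957 CPM in the photoconverted tumors (1 to 4) and 4.31, 0.856, 3.34 and 0.305 CPM in the control tumors (1 to 4). Control tumors 1 and 3 stood above all other tumors and control tumor 4 below them, so the controls lay on both sides of the photoconverted group. Control tumor 2 (0.856 CPM) was close to photoconverted tumor 1 (0.926 CPM), and at this depth their order is uncertain. The log2 fold change was -0.92 (SE 0.65) with an unadjusted p of 0.192 in edgeR, and -1.57 (SE 0.30) with an adjusted p of 0.118 in the edgeR fit of 5 tumors. Siglech, a lectin of plasmacytoid DCs, was at 1.23, 1.48, 1.34 and 0.957 CPM in the 4 photoconverted tumors and 1.91, 1.28, 1.53 and 0.244 CPM in the 4 controls, lowest in control tumor 4 and with a log2 fold change of -0.01 (SE 0.47).

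Beyond the members, 45 further ligands, receptors, transcription factors and markers of myeloid cells were examined, of which 42 were tested. In edgeR 0 passed the adjusted threshold, 22 estimates were positive and 20 negative, and the median was 0.04. An unadjusted p under 0.05 was found for 3 (7.14%, against 2.23% of all genes), namely Csf1, Ccl7 and Nr4a1, all with positive estimates. With the replicate block 11 had an unadjusted p under 0.05 in edgeR (26.2%, against 6.01% of all genes), all with positive estimates, among them Csf1, Ccl2, Ccl7, Ccr1 and Nr4a1. The photoconverted tumor was higher in 4 of 4 pairs for 8 of the 42, against 7.2% of all genes. The 42 were chosen with earlier results of these data known, so these shares describe the list and do not test it.

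Csf1, the growth factor that binds the receptor encoded by Csf1r, was at 133, 136, 176 and 129 CPM in the photoconverted tumors (1 to 4) and 99.4, 108, 87.2 and 124 CPM in the control tumors (1 to 4). It was the single gene of the 42 whose groups did not overlap (1.33% of all genes), although photoconverted tumor 4 and control tumor 4 were close. The log2 fold change was 0.45 (SE 0.15) with an unadjusted p of 0.0141 and an adjusted p of 0.999 in edgeR, and the two-sided exact permutation p of 0.0286 is the smallest that 4 tumors against 4 can give. In the 5 tumors with a low Rn45s share the estimate was 0.67.

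Ccl7, a chemokine that binds CCR2, was at 149, 129, 167 and 93.3 CPM in the photoconverted tumors (1 to 4) and 94.4, 95.2, 107 and 58.2 CPM in the control tumors (1 to 4). Ccl2, the main CCR2 ligand, was at 289, 168, 281 and 87.1 CPM in the 4 photoconverted tumors and 154, 68.3, 144 and 77.4 CPM in the 4 controls. In both, each photoconverted tumor exceeded the control tumor of the same number, whereas the groups as a whole overlapped because photoconverted tumor 4 was low. The log2 fold change of Ccl7 was 0.60 (SE 0.23), with an unadjusted p of 0.0252, and with the block 0.61 with an unadjusted p of 0.000197 and an adjusted p of 0.396 in edgeR. That of Ccl2 was 0.89 (SE 0.40), with an unadjusted p of 0.0531, and with the block 0.84 with an unadjusted p of 0.00119 and an adjusted p of 0.506 in edgeR. In the 5 tumors the estimates were 0.56 for Ccl7 and 0.72 for Ccl2. Their receptor gene Ccr2 had an estimate of 0.13 in the fit of 8 tumors, and the difference between ligand and receptor was not tested.

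Nr4a1, a nuclear receptor needed by patrolling monocytes and also induced by acute stimuli in many cells, was at 15.4, 14.1, 19.8 and 9.02 CPM in the 4 photoconverted tumors and 8.97, 9.74, 9.92 and 10.1 CPM in the 4 controls. Photoconverted tumors 1 to 3 lay above all controls and photoconverted tumor 4 within them, with a log2 fold change of 0.60 (SE 0.22) and an unadjusted p of 0.0247 in edgeR, and an estimate of 0.80 in the 5 tumors. Ccr1, a chemokine receptor of monocytes and neutrophils that was chosen after its values were seen, was at 34.5, 36.7, 50.5 and 13.6 CPM in the 4 photoconverted tumors and 29.0, 11.5, 24.99 and 11.7 CPM in the 4 controls. It was higher in 4 of 4 pairs, at 0.80 (SE 0.42) in 8 tumors and 0.78 with the block.

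Ccr7, the receptor by which mature DCs reach the LN, was at 6.93, 7.83, 9.14 and 5.40 CPM in the 4 photoconverted tumors and 14.8, 6.32, 8.96 and 4.64 CPM in the 4 controls, with a log2 fold change of -0.26 (SE 0.34). Cx3cr1, the fractalkine receptor, was at 3.48, 3.38, 3.51 and 2.94 CPM in the photoconverted tumors (1 to 4) and 10.1, 4.71, 7.5 and 1.53 CPM in the control tumors (1 to 4). The photoconverted tumors lay close together, while control tumors 1 to 3 were above them and control tumor 4 below. Its log2 fold change was -0.85 (SE 0.46) in 8 tumors with an unadjusted p of 0.0943, and -1.35 (SE 0.19) with an adjusted p of 0.0484 in the 5 tumors, both in edgeR, which made it the only gene of the 42 past the threshold there. Ccl22, a chemokine of mature DCs, was at 1.78, 2.40, 2.88 and 1.09 CPM in the 4 photoconverted tumors and 8.19, 2.35, 4.12 and 0.916 CPM in the 4 controls, with a log2 fold change of -0.96 (SE 0.58). Control tumor 1 was the highest of all 8 for these 3 genes. Cx3cr1 and Ccl22 were chosen after their values were seen.

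**Figure D5:**
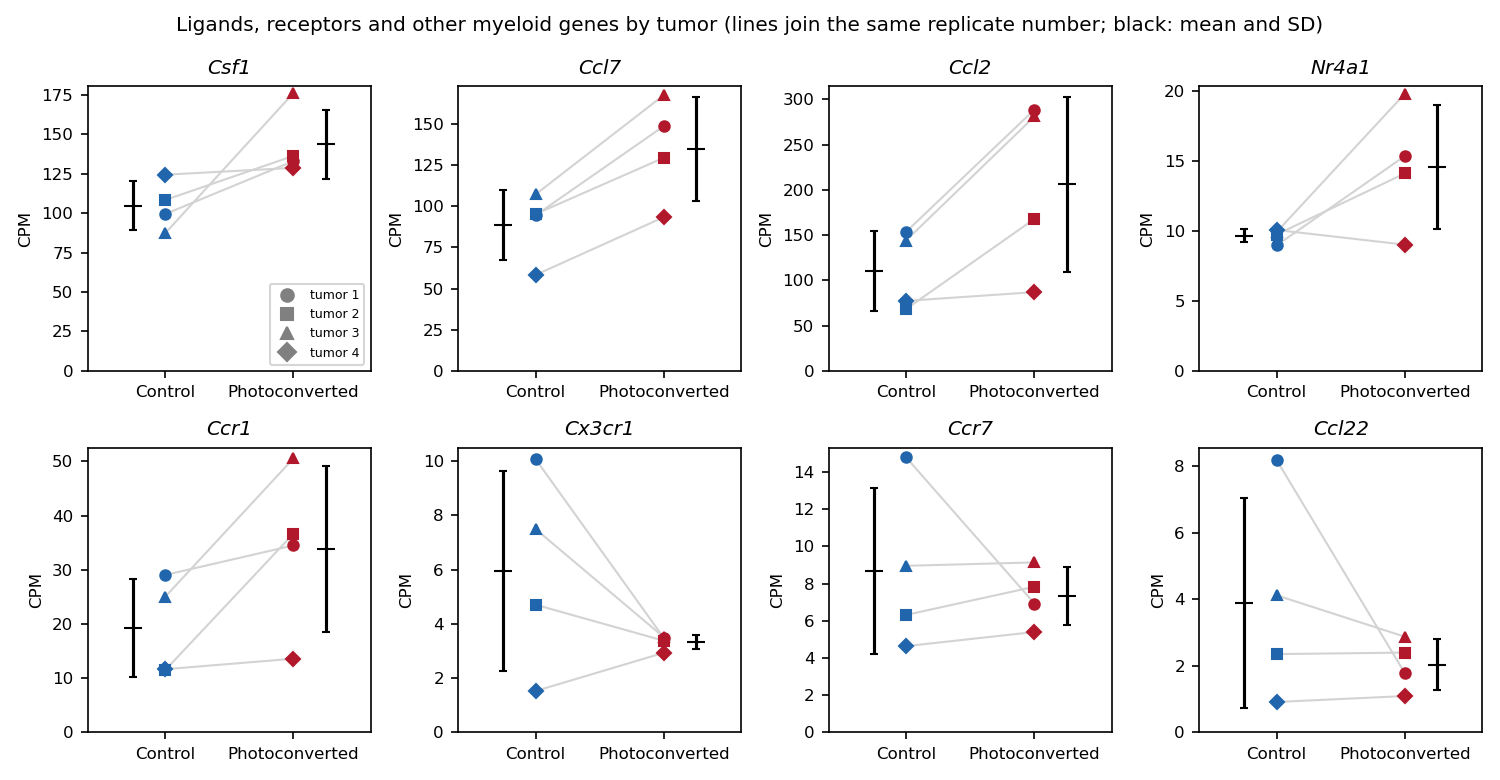
Levels (CPM, linear axes from 0) of Csf1, Ccl7, Ccl2, Nr4a1, Ccr1, Cx3cr1, Ccr7 and Ccl22 in control (blue) and photoconverted (red) tumors, drawn with a symbol for each replicate number, gray lines between same-numbered tumors and black bars for mean ± SD (n = 4). All 4 lines point up for Csf1, Ccl7, Ccl2 and Ccr1, and Cx3cr1 spreads widely in the control tumors but lies between 2.94 and 3.51 CPM in the photoconverted tumors.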

How the data were processed

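Bulk RNA-seq of 8 tumors was analysed, 4 Photoconverted and 4 Control, with groups and replicate numbers from the sample titles and columns matched by the letter given to each sample. The authors deposited a table of raw counts by gene symbol and a table of normalized signal values, the latter equal to the counts divided by 1 factor per tumor and without the genes with at most 1 count. The submitters' processing notes name CASAVA, FastQC, Trim Galore, HISAT2, featureCounts and DESeq2 and the build mm10. Strandedness of counting is not given in the sources used here, and the paper and the labels name different stranded total RNA kits. Exons of Csf1r and Folr2 overlap a gene on the opposite strand, and those of Spp1, Itgam and Clec9a a gene on the same strand.

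Counts were tested with edgeR 4.0.16 in R 4.3.3 (TMM, filterByExpr, quasi-likelihood test, Benjamini-Hochberg adjustment over all 14468 genes tested, threshold 0.05). CPM used TMM library sizes, and log2 CPM a prior count of 2. SEs are the log2 fold change divided by the square root of F. Levels per length used merged exons of GENCODE vM21 (GRCm38). Exact permutation tests were two-sided over 70 arrangements. DESeq2 1.42.0, limma 3.58.1 (log2 of normalized values plus 1), other normalization, no filter, the replicate block, and leaving out each tumor were alternatives, and 3 handling Rn45s were chosen after the data were seen. Deviations from group means correlated across genes at 0.107 to 0.623 between same-numbered tumors (mean 0.433) and at a mean of -0.134 between others. Centering within groups ties the second mean to the first. The pairing comes only from the replicate numbers in the titles, and the labels state no shared litter or batch. On simulated counts of 14468 genes, 175 of 200 genes changed 4-fold were recovered with 15 false calls. No replicate pair agreed within sampling noise (lowest chi-square per degree of freedom 23.8).

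Members and lists were chosen with earlier results of these data known. Values by tumor are given for members with an unadjusted p under 0.05, for defining members of each list, for the largest estimate of each list, and for 3 other myeloid genes with the smallest p, Ccl2 and Ccr7. Fcgr3, Cx3cr1, Ccl22, Ccr1 and Spi1 were added after their values were seen. Intervals and floors cover counting error only.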

Additional observations from a re-analysis of the deposited data

Results flagged for a closer look

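In 82 sets of 4 tumors (the members and lists within a group), the highest or lowest tumor stood apart from the other 3 by Dixon's criterion in 5, where chance gives about 1 in 20, or 4.1. Cd163 was at 32.0 CPM in control tumor 1, and the next control tumor was at 15.2 CPM. Lyve1 was at 28.8 CPM in the same tumor, and the next control tumor was at 7.63 CPM. Fcgr1 was at 80.5 CPM in photoconverted tumor 3, with the next photoconverted tumor at 58.1 CPM. The level of the shared receptors and adaptors relative to their mean was -0.82 in control tumor 4 and 0.10 in the next control tumor, and that of conventional DC genes was -1.13 in control tumor 4 and 0.07 in the next. Control tumor 4 was 1 of the 3 libraries with a high Rn45s share, and the part of library quality in these values was not tested.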

How the results depend on the processing

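Of 576 member values under 16 alternatives, 572 moved by less than the spread between tumors, 0 were reversed past the threshold, and 4 moved further, all in the 5 tumors whose Rn45s share was below 10%: Gpnmb to 0.06, Ly6c2 to -0.74, Batf3 to 0.12 and Cd14 to 1.31 past the threshold. The estimate kept its sign under all 16 for 11 members and not for 25. Members past the adjusted threshold were 0 except for 1 in the 5 tumors, and other myeloid genes likewise 0 except for 1. Genes past it numbered 24 with DESeq2, 42 in the 5 tumors, and 0 to 11 when 1 tumor was left out (11 without photoconverted tumor 4). Members at an unadjusted p under 0.05 numbered 2 with DESeq2, without a filter or with limma, 3 with the log2 Rn45s share as a covariate, 4 in the 5 tumors, and 0 to 5 when 1 tumor was left out (0 without photoconverted tumor 2 or 3, 2 without photoconverted tumor 4, 4 without control tumor 1, 5 without control tumor 4). With the replicate block they numbered 5, no adjusted call changed, and the block moved no other count of member calls. List medians ranged from -0.16 to 0.46 for tissue macrophage genes, -0.26 to 0.18 for lipid-associated macrophage genes, -0.02 to 0.32 for shared receptors, -0.20 to 0.31 for monocyte genes and -0.38 to 0.11 for conventional DC genes. The conventional DC median included Xcr1 in the fits where it was tested. The cause of these shifts was not tested. Depth limits DC genes such as Xcr1 and Clec9a.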
